A study of Rattus norvegicus with 30 samples.

Results

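Nr2f2, Tcf21, Pdgfra, Pdgfrb, Nes and Ngfr, markers of stem Leydig cells and of interstitial progenitors in the rat testis, were taken by symbol through their Entrez gene identifiers and are 6 of the 17322 genes measured. Stem Leydig cells are undifferentiated mesenchymal cells that lie around the tubules and along vessels, and they give rise to the adult Leydig cells, which make testosterone. Platelet-derived growth factors from neighbouring cells bind receptor tyrosine kinases on interstitial cells, and signalling through the alpha receptor is needed for the adult Leydig population to form. The markers are shared with other cells of the interstitium, such as fibroblasts, peritubular cells, pericytes and nerve sheath cells.

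RNA was sequenced from whole testes of Wistar Han rats at 6 ages in days post partum (8.5, 14.5 and 24.5 dpp, then 30.5, 36.5 and, as the oldest, 53.5 dpp). Pieces of testis taken at 8.5 dpp were kept in organ culture for 6 days (D6), 16 days (D16), 22 days (D22) or 28 days (D28). By age, D6 is matched to 14.5 dpp, D16 to 24.5 dpp, D22 to 30.5 dpp and D28 to 36.5 dpp. Each in vivo library came from a different testis, while each cultured library came from pooled pieces of several males, so the spread between cultured libraries is a spread between pools. The pieces lay on agarose at the interphase of gas and liquid, in αMEM with Knock-out serum replacement, retinol and vitamin E, and their necrotic centre was removed before RNA extraction. Each group had 3 libraries except 14.5 dpp, which had 2: its other library is labelled as an outlier, listed 0 for all 17322 genes, and was not used. The 29 libraries used were 17 in vivo and 12 cultured. Values are the deposited FPKM, in which reads are corrected for transcript length and for library size. The number of reads behind them is unknown; FPKM summed over all genes lay between 292262 and 380335 per library, and 12520 to 13563 genes were above 0.

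Of the 6 members, Tcf21, Nes and Pdgfra have an entry in the promoter table used, and their promoters are shown as those of members whose FPKM fell in vivo with age. Nr2f2 and Pdgfrb, which fell too, and Ngfr have no entry in it. Each runs from 250 bases before to 50 bases after the gene start in the RefSeq table of build GRCr8, 5′ to 3′ on the gene's own strand, at chr1:24520249-24520548 (plus strand) for Tcf21, chr2:175736338-175736637 (plus strand) for Nes and chr14:33408467-33408766 (minus strand) for Pdgfra. Capitals mark AGATAA, to which GATA factors bind. The search covered both strands and was also made for the half-site AGGTCA of many nuclear receptors, for the E-box CAGCTG of basic helix-loop-helix factors, and for the box TATAAA of core promoters.
Tcf21: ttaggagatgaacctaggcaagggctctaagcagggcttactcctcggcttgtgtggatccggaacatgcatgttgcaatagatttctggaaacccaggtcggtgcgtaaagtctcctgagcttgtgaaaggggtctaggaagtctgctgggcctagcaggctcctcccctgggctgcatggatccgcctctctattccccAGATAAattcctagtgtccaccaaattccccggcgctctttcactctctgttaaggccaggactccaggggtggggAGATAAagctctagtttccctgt
Nes: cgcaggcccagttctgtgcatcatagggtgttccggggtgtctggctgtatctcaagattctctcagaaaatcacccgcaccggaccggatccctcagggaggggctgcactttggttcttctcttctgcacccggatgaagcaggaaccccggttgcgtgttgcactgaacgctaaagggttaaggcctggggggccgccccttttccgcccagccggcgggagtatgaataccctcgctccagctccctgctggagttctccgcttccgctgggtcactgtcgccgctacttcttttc
Pdgfra: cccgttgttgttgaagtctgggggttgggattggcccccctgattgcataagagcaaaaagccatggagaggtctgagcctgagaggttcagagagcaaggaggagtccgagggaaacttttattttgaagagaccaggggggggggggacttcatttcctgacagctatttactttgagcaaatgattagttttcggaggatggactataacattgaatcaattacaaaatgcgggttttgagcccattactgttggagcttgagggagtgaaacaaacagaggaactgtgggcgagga
AGATAA was found in 1 of the 3 promoters, that of Tcf21, at positions -49 and 28 from the gene start. The half-site, the E-box and the TATA box were found in 0 of the 3. Of 33469 promoters of the same length, 11.6% held the GATA motif, 16.2% the half-site, 15.1% the E-box and 14.2% the TATA box. The share of G and C was 53.7% for Tcf21, 60.0% for Nes and 48.0% for Pdgfra, beside a median of 51.7% over all promoters.

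Both transcription factors were at their highest in the youngest testes and lost most of their level with age in vivo, whereas in cultured tissue they stayed within reach of the 14.5 dpp level. Nr2f2 (Entrez 113984) encodes COUP-TFII, an orphan nuclear receptor of interstitial mesenchyme. In vivo, Nr2f2 read 73.7, 70.5 and 70.1 FPKM at 8.5 dpp, 49.9 and 40.3 at 14.5 dpp, 17.3, 11.6 and 14.8 at 24.5 dpp, 7.72, 7.49 and 9.64 at 30.5 dpp, 8.42, 6.41 and 4.73 at 36.5 dpp and 3.66, 2.51 and 4.44 at 53.5 dpp. In culture, Nr2f2 read 41.1, 37.0 and 60.5 FPKM at D6, 38.3, 33.0 and 28.7 at D16, then 34.7, 34.2 and 35.0 at D22 and 46.6, 30.6 and 34.4 at D28. The 8.5 dpp libraries lay above all others, the 4 culture groups overlapped their neighbours and, at D6 and D28, the 14.5 dpp libraries, and each cultured library lay above each library from 24.5 dpp on. Among the older testes 24.5 dpp was above 30.5 dpp, 30.5 and 36.5 dpp overlapped, and 53.5 dpp was lowest. These are levels in whole tissue, in which fewer cells of a type and less RNA per cell cannot be told apart.

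Tcf21 (Entrez 252856) encodes a basic helix-loop-helix factor of mesenchymal progenitors and was the most abundant member at 8.5 dpp. In vivo, Tcf21 read 149, 146 and 149 FPKM at 8.5 dpp, 72.8 and 50.3 at 14.5 dpp, 19.7, 9.56 and 21.9 at 24.5 dpp, 6.75, 5.51 and 7.93 at 30.5 dpp, 6.33, 4.24 and 2.55 at 36.5 dpp and 1.77, 1.56 and 3.23 at 53.5 dpp. In culture, Tcf21 read 92.8, 73.9 and 128 FPKM at D6, 77.0, 55.8 and 55.7 at D16, then 54.3, 65.7 and 67.4 at D22 and 75.9, 59.0 and 65.5 at D28. The 8.5 dpp libraries stood alone at the top, D6, D28, D16, D22 and 14.5 dpp followed with overlapping neighbours, 24.5 dpp came next with no overlap on either side, and the libraries from 30.5 to 53.5 dpp overlapped in turn at the bottom. The mean at 8.5 dpp was 148 FPKM and at 53.5 dpp 2.19 FPKM, a ratio of 67.6, beside 20.2 for Nr2f2.

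**Figure D1:**
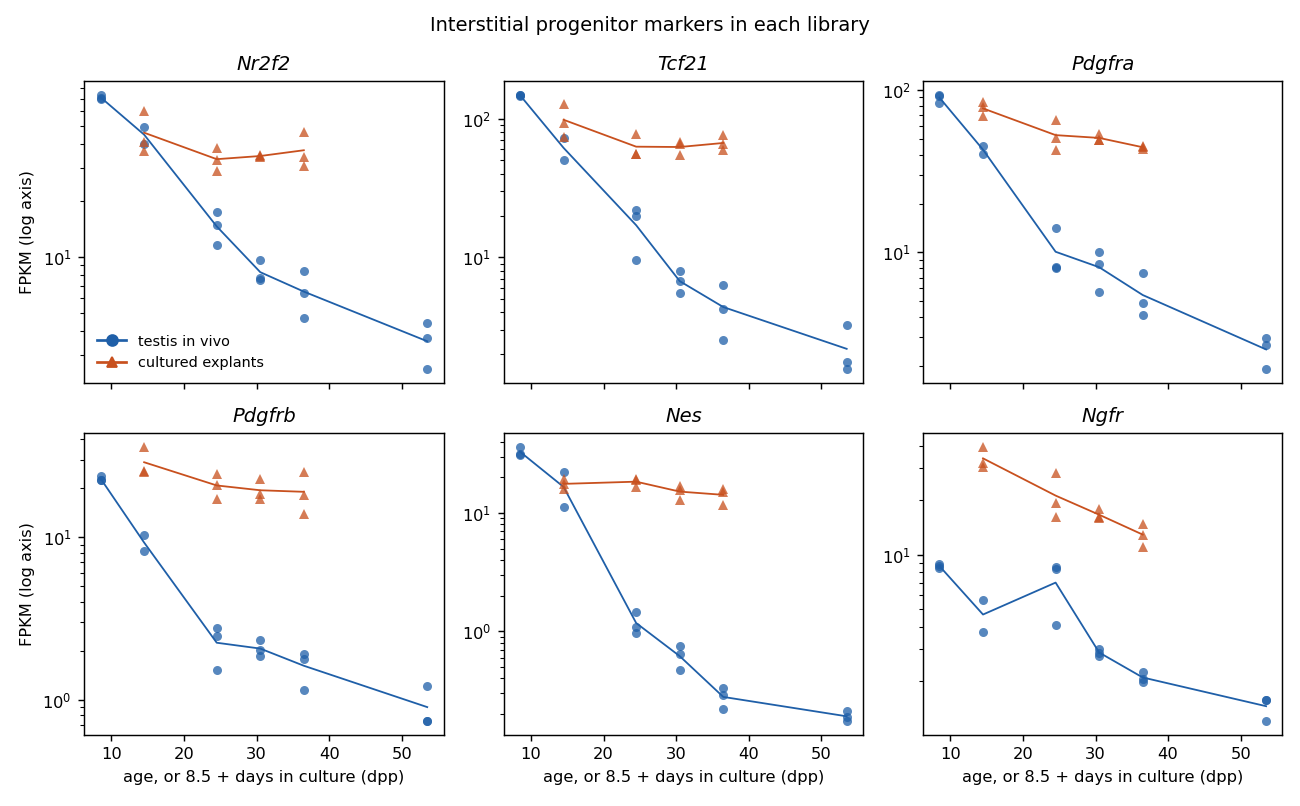
FPKM of each marker in each library (log axis) against age in dpp, or 8.5 plus the days in culture for cultured tissue; circles are in vivo libraries, triangles cultured libraries, and lines join group means. In vivo means of the markers other than Ngfr are lower at each later age, and cultured libraries from D16 on lie above the in vivo libraries of the matched age.

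Pdgfra (Entrez 25267) encodes the alpha receptor for platelet-derived growth factors. In vivo, Pdgfra read 93.5, 92.3 and 83.5 FPKM at 8.5 dpp, 45.2 and 40.6 at 14.5 dpp, 14.2, 7.98 and 8.08 at 24.5 dpp, 8.49, 5.71 and 10.1 at 30.5 dpp, 7.44, 4.85 and 4.11 at 36.5 dpp and 2.68, 1.91 and 2.98 at 53.5 dpp. In culture, Pdgfra read 78.1, 69.0 and 84.0 FPKM at D6, 65.3, 50.3 and 42.6 at D16, then 49.2, 53.9 and 49.0 at D22 and 44.5, 43.4 and 45.4 at D28. D6 overlapped 8.5 dpp and lay above D16, D16 overlapped D22, D22 lay above D28, and D28 overlapped 14.5 dpp. A gap separated 14.5 dpp from 24.5 dpp, then the ages from 24.5 to 36.5 dpp overlapped in turn and 53.5 dpp lay below them.

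Pdgfrb (Entrez 24629) encodes the beta receptor, which also marks pericytes. In vivo, Pdgfrb read 22.7, 23.9 and 22.4 FPKM at 8.5 dpp, 10.3 and 8.22 at 14.5 dpp, 2.74, 1.53 and 2.45 at 24.5 dpp, 1.85, 2.02 and 2.32 at 30.5 dpp, 1.79, 1.92 and 1.14 at 36.5 dpp and 0.740, 0.737 and 1.22 at 53.5 dpp. In culture, Pdgfrb read 25.6, 25.2 and 36.1 FPKM at D6, 24.4, 17.2 and 20.9 at D16, then 22.7, 18.4 and 17.3 at D22 and 25.2, 13.8 and 18.1 at D28. The D6 libraries were the highest, with the lowest of them all but level with the highest D28 library, and 8.5 dpp, D16, D22 and D28 overlapped in turn below them. Each of these libraries lay above both 14.5 dpp libraries, and 24.5 to 53.5 dpp formed an overlapping series at the bottom. The mean of Pdgfra was 89.8 FPKM at 8.5 dpp beside 23.0 FPKM for Pdgfrb, and at 53.5 dpp the means were 2.53 and 0.899 FPKM.

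Nes (Entrez 25491) encodes nestin, an intermediate filament protein of progenitor cells. In vivo, Nes read 36.3, 31.1 and 31.4 FPKM at 8.5 dpp, 22.1 and 11.2 at 14.5 dpp, 1.09, 0.960 and 1.47 at 24.5 dpp, 0.638, 0.468 and 0.744 at 30.5 dpp, 0.287, 0.331 and 0.219 at 36.5 dpp and 0.188, 0.174 and 0.211 at 53.5 dpp. In culture, Nes read 16.0, 17.6 and 19.2 FPKM at D6, 19.0, 16.8 and 19.5 at D16, then 17.0, 13.0 and 15.5 at D22 and 15.0, 16.1 and 11.6 at D28. Nes had the widest in vivo range of the 6 members, with a ratio of 173 between the means at 8.5 and 53.5 dpp, and no in vivo age from 24.5 dpp on overlapped the next. The culture groups and 14.5 dpp overlapped in turn below 8.5 dpp and above 24.5 dpp. The 2 libraries at 14.5 dpp differed from each other more than the cultured libraries did.

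Ngfr (Entrez 24596), which encodes the p75 receptor for neurotrophins, had a different course from the other 5. In vivo, Ngfr read 8.86, 8.66 and 8.42 FPKM at 8.5 dpp, 3.74 and 5.59 at 14.5 dpp, 8.36, 4.06 and 8.59 at 24.5 dpp, 2.85, 2.76 and 3.01 at 30.5 dpp, 2.05, 2.24 and 1.99 at 36.5 dpp and 1.20, 1.58 and 1.57 at 53.5 dpp. In culture, Ngfr read 32.2, 30.5 and 39.5 FPKM at D6, 28.3, 19.2 and 16.1 at D16, then 16.0, 16.1 and 17.8 at D22 and 14.8, 11.1 and 12.9 at D28. Each cultured library lay above each of the 17 in vivo libraries. D6 was highest, D16 and D22 overlapped below it, D28 came next, and 8.5, 24.5 and 14.5 dpp overlapped in turn above the 3 oldest ages, which did not overlap. The mean at D6 was 34.1 ± 4.77 FPKM (SD, n = 3), 3.94 times that at 8.5 dpp, and the mean at D28 was 12.9 ± 1.86 FPKM (SD, n = 3).

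Summed over the 6 members, FPKM averaged 373 ± 9.61 at 8.5 dpp, 180.1 ± 33.8 at 14.5 dpp (n = 2), 52.1 ± 14.6 at 24.5 dpp and 10.8 ± 2.63 at 53.5 dpp, and 302 ± 58.6 at D6, 209 ± 37.4 at D16, then 199 ± 4.40 at D22 and 195 ± 24.6 at D28 (SD, n = 3 unless given). The make-up of this sum shifted with age and culture. Tcf21 held 39.6% of it at 8.5 dpp, 19.8% at 53.5 dpp and 34.3% at D28. Nes held 8.82% at 8.5 dpp, 2.33% at 24.5 dpp and 7.40% at D28. Ngfr held 2.32% at 8.5 dpp, 13.2% at 24.5 dpp, 11.4% at D6 and 6.62% at D28.

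The in vivo ages were compared in a single limma fit to follow the members through the first wave of spermatogenesis. Here and below, log2 differences are of log2(FPKM + 1) ± SE, p-values are adjusted over all genes tested, and a gene passed when its adjusted p was at most 0.05 and the ratio of its group medians at least 2. From 8.5 to 14.5 dpp, 3 of the 6 members passed, each lower: Pdgfra at -1.05 ± 0.26 (adjusted p 0.00597), Pdgfrb at -1.23 ± 0.18 (adjusted p 0.000128) and Tcf21 at -1.27 ± 0.34 (adjusted p 0.00841). Of all 12531 genes tested, 6.32% passed as lower and 8.37% as higher. Nes, at -1.02 ± 0.19 (adjusted p 0.00103), Ngfr, at -0.79 ± 0.22 (adjusted p 0.0105), and Nr2f2, at -0.66 ± 0.22 (adjusted p 0.0279), did not reach the ratio of medians, although both 14.5 dpp libraries lay below all 3 at 8.5 dpp for each of the 6 members, as they did for 26.5% of all genes tested. These calls rested on the pair of 14.5 dpp libraries. Without replicate 2, Pdgfra stood at -0.97 (adjusted p 0.0612) and Tcf21 at -1.01 (adjusted p 0.115), and Ngfr passed at -1.03 (adjusted p 0.0149). Nes passed at -1.48 without replicate 1 at 14.5 dpp, and at -1.05 without replicate 2 or without replicate 3 at 8.5 dpp.

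Between 14.5 and 24.5 dpp, 5 of the 6 members fell, Nes the most, but scaled to Sertoli markers, as described below, 4 of these 5 turned positive. Nes changed by -2.95 ± 0.19 (adjusted p 1.90e-08), Pdgfra by -2.03 ± 0.26 (adjusted p 1.41e-05), Tcf21 by -1.85 ± 0.34 (adjusted p 0.000288), Pdgfrb by -1.68 ± 0.18 (adjusted p 2.28e-06) and Nr2f2 by -1.58 ± 0.22 (adjusted p 2.73e-05), with all 3 libraries at 24.5 dpp below both at 14.5 dpp in FPKM, as for 41.9% of all genes. Of 12531 genes, 21.4% passed as lower and 14.2% as higher. Ngfr stood at 0.46 ± 0.22 (adjusted p 0.0813), with overlapping groups, and passed as higher at 0.70 (adjusted p 0.0378) when replicate 2 at 14.5 dpp was left out. From 24.5 to 53.5 dpp, 6 of 6 members were lower, beside 50.9% of all genes lower and 15.9% higher, and 4 of them turned positive under that scaling. The differences ran from -2.46 ± 0.30 (adjusted p 2.46e-06) for Tcf21 to -0.76 ± 0.16 (adjusted p 0.000456) for Pdgfrb, with Nr2f2 at -1.78, Ngfr at -1.65, Pdgfra at -1.62 and Nes at -0.86. The 1 added to FPKM shrinks the difference of Nes, whose means were 1.17 and 0.191 FPKM. As ratios of mean FPKM, 24.5 dpp stood above 53.5 dpp by 7.80 for Tcf21, 6.15 for Nes, 4.83 for Ngfr, 4.12 for Nr2f2, 4.00 for Pdgfra and 2.49 for Pdgfrb. The 3 comparisons share libraries, those of 14.5 dpp and of 24.5 dpp each standing in 2 of them.

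The median log2 difference of the 6 members was -1.03 from 8.5 to 14.5 dpp, -1.76 from 14.5 to 24.5 dpp and -1.64 from 24.5 to 53.5 dpp, beside 0.05, -0.13 and -0.72 over all genes. Germ cells fill the testis over these ages, and markers of germ and Sertoli cells moved as well. The summed FPKM of 5 germ cell markers, Stra8 not being analysed here, was 39.0, 38.4 and 39.5 at 8.5 dpp, 138 and 305 at 14.5 dpp, 1109, 1192 and 1149 at 24.5 dpp, 829, 871 and 831 at 30.5 dpp, 663, 705 and 776 at 36.5 dpp and 551, 592 and 561 at 53.5 dpp, and 124, 102 and 66.6 at D6, 137, 114 and 131 at D16, then 149, 138 and 96.7 at D22 and 70.7, 135 and 86.2 at D28. Over all 29 libraries Mael, of the pathway that silences transposons, had the highest mean of them, but in culture Dazl, which encodes an RNA-binding protein of germ cells, stood above it, at 92.5 beside 9.03 FPKM at D16. The list was high from 24.5 dpp on and low in every cultured library. Of the 5 markers, 5 rose from 14.5 to 24.5 dpp, beside 14.2% of all genes. At D28, 4 were lower than at 36.5 dpp, beside 23.6% of all genes. The part of germ cells in the members' values was not tested.

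The summed FPKM of 6 Sertoli markers, with Cldn11 of the tight junctions highest over all libraries, was 409, 293 and 252 at 8.5 dpp, 770.0 and 761 at 14.5 dpp, 277, 303 and 432 at 24.5 dpp, 157, 102 and 114 at 30.5 dpp, 97.5, 85.6 and 75.3 at 36.5 dpp and 68.8, 62.2 and 66.5 at 53.5 dpp, and 622, 526 and 498 at D6, 699.8, 755 and 722 at D16, then 799, 862 and 802 at D22 and 792, 906 and 806 at D28. These markers were thus high at 14.5 dpp and in culture and low in the older testes, and their part in the members' values was not tested. Each library was also scaled to the median log2 value of these 6 markers. Their own summed level rose from 8.5 to 14.5 dpp and fell at later ages, so this scale is relative and not a fixed reference. That scaling moved the median of all genes from -0.13 to 1.33 between 14.5 and 24.5 dpp, from -0.72 to 1.06 between 24.5 and 53.5 dpp, and from 0.05 to -0.56 between 8.5 and 14.5 dpp.

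Relative to the Sertoli markers the early fall was larger and the later falls of most members turned. From 8.5 to 14.5 dpp, 6 of 6 members were lower under this scaling, beside 37.0% of all genes, between -2.28 for Tcf21 and -1.14 for Ngfr. From 14.5 to 24.5 dpp, Nes remained lower at -0.85, beside 0.223% of all genes lower and 69.6% higher, while Nr2f2 (0.56), Tcf21 (0.32), Pdgfra (0.12) and Pdgfrb (0.11) turned positive without passing and Ngfr passed at 1.72. From 24.5 to 53.5 dpp, Tcf21 (-0.34) and Nes (-0.01) no longer passed, Nr2f2, Pdgfra and Ngfr turned to 0.46, 0.52 and 0.30, and Pdgfrb passed as higher at 0.85, as 53.5% of all genes did. The share of higher genes among those that passed moved from 57.0% to 1.24%, from 39.9% to 99.7% and from 23.8% to 97.8% in the 3 comparisons in turn. Under median-ratio scaling, which sets the typical gene to no change, the median of all genes moved to -0.01 from 14.5 to 24.5 dpp and to 0.00 from 24.5 to 53.5 dpp, and the shares of higher genes were 40.8%, 48.3% and 60.1%. On that scale 5 members passed as lower in the first comparison, 5 as lower and Ngfr as higher in the second, and Tcf21, Nes and Ngfr as lower in the third, beside 8.47%, 16.7% and 19.3% of all genes lower.

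**Figure D2:**
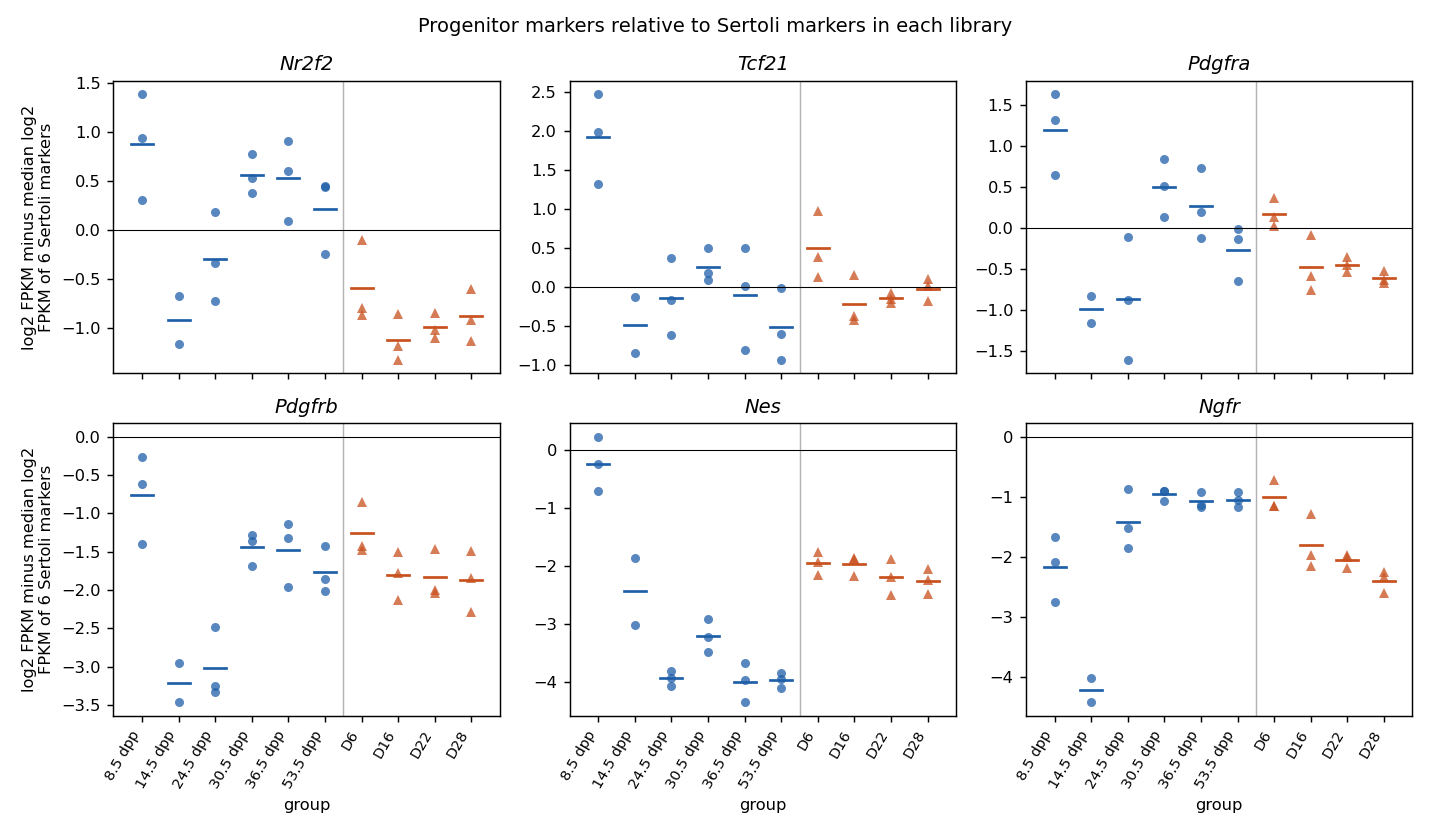
Log2 FPKM of each marker, with nothing added to FPKM, minus the median log2 FPKM of the 6 Sertoli markers in each library, a scale other than that of the tests, with circles for in vivo and triangles for cultured libraries and bars at group means. Each of the 6 markers falls from 8.5 to 14.5 dpp on this scale, from 1.92 to -0.49 for Tcf21, and Nes in culture lies above Nes from 24.5 dpp on.

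Cultured tissue was compared with the 8.5 dpp testis, from which it was taken, in a fit of 8.5 dpp with the 4 culture groups, so that the comparisons share the 3 libraries at 8.5 dpp. After 6 days 1 of the 6 members passed: Ngfr was higher by 1.85 ± 0.17 (adjusted p 1.69e-06), with 3 of 3 cultured libraries above each library at 8.5 dpp, as for 32.8% of all genes. Of 11539 genes, 9.90% passed as higher and 6.23% as lower. Nes stood at -0.87 ± 0.13 (adjusted p 0.000110), Nr2f2 at -0.65 ± 0.18 (adjusted p 0.00818) and Tcf21 at -0.62 ± 0.18 (adjusted p 0.0124), each with 3 of 3 D6 libraries below 8.5 dpp, as for 24.9% of all genes, but a ratio of medians under 2. Pdgfra, at -0.22 ± 0.13 (adjusted p 0.170), and Pdgfrb, at 0.30 ± 0.20 (adjusted p 0.228), did not reach the adjusted threshold, although the D6 libraries of Pdgfrb lay above those at 8.5 dpp. At D28, 4 of the 6 passed as lower, beside 10.5% of all genes, with 13.6% higher. These were Nes at -1.16 ± 0.13 (adjusted p 4.91e-06), Tcf21 at -1.14 ± 0.18 (adjusted p 0.000122), Pdgfra at -0.997 ± 0.13 (adjusted p 1.84e-05) and Nr2f2 at -0.94 ± 0.18 (adjusted p 0.000451), in each case with 3 of 3 libraries below 8.5 dpp, as for 28.7% of all genes. Ngfr stood at 0.52 ± 0.17 (adjusted p 0.0162) and Pdgfrb at -0.30 ± 0.20 (adjusted p 0.212).

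At D28, Pdgfra and Nr2f2 were near the required ratio of medians. Pdgfra no longer passed without replicate 1 (-0.97) or replicate 2 (-0.98) at 8.5 dpp, and Nr2f2 without D28 replicate 2 (-0.82) or replicate 3 (-0.90). Scaling to the Sertoli markers moved the median of all genes from 0.06 to -0.64 at D6 and from 0.04 to -0.65 at D28, and the share of higher genes among those that passed from 61.4% to 8.71% and from 56.5% to 12.3%. Under it Nr2f2, Pdgfra, Tcf21 and Nes passed as lower at D6, beside 34.8% of all genes, Ngfr was at 1.11 (adjusted p 0.00167) without the required ratio, and Pdgfrb turned to -0.48. At D28, 5 members passed as lower under this scaling, beside 38.7% of all genes, and Ngfr turned to -0.22.

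**Figure D3:**
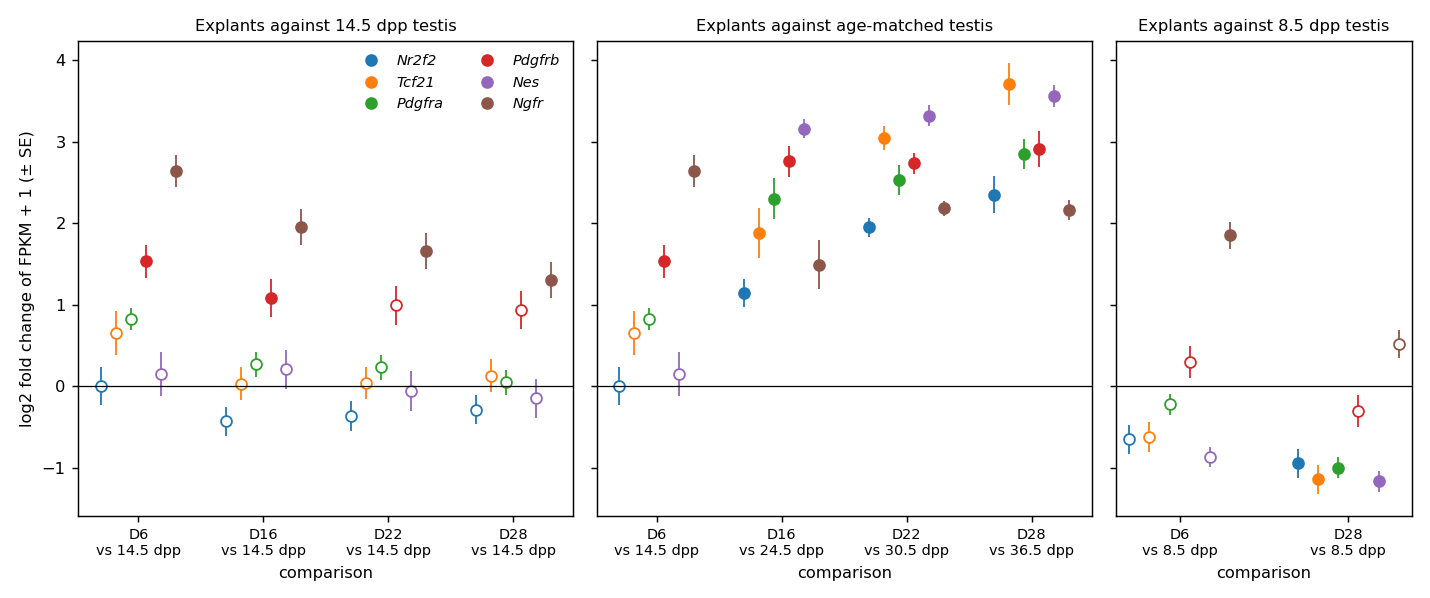
Log2 difference ± SE of each marker, filled where the gene passed and open where it did not, for culture against 14.5 dpp, against the age-matched testis and against 8.5 dpp. The markers stand from 1.15 to 3.71 above the matched age from D16 on, while scaled to the Sertoli markers 3 of the 6 values turned negative at D16, 4 at D28 and 5 at D22.

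The later cultures were set beside the 14.5 dpp testis, to see how far they stand from the age that follows the start of culture, in a fit of 14.5 dpp (n = 2), D16, D22 and D28. The 3 comparisons share the 14.5 dpp libraries. Ngfr was higher at each time and Pdgfrb at D16. At D16, 2 of the 6 members passed, each higher, beside 6.87% of 11517 genes higher and 6.14% lower: Ngfr by 1.95 ± 0.22 (adjusted p 0.000287) and Pdgfrb by 1.08 ± 0.23 (adjusted p 0.00662). At D22, 1 of 6 passed, Ngfr, higher by 1.66 ± 0.22 (adjusted p 0.000502), beside 7.76% of genes higher and 5.99% lower. At D28, 1 of 6 passed, again Ngfr, higher by 1.31 ± 0.22 (adjusted p 0.00156), beside 8.40% higher and 6.88% lower. Pdgfrb stood at 0.99 ± 0.23 (adjusted p 0.00911) at D22 and 0.93 ± 0.23 (adjusted p 0.0108) at D28, short of the ratio of medians, and a difference between the culture times was not shown. For Ngfr and Pdgfrb, each of the 9 later cultured libraries lay above both 14.5 dpp libraries, as did 3 of 3 for Pdgfra at D22. For Nr2f2 those at D16 and at D22 lay below. Of all genes, 27.2%, 27.0% and 24.1% lay wholly above 14.5 dpp at the 3 times, and 33.9%, 33.9% and 31.7% wholly below.

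Nr2f2, Pdgfra, Tcf21 and Nes did not pass at any of the 3 times. At D28 their differences from 14.5 dpp were -0.28 ± 0.18 (adjusted p 0.228), 0.05 ± 0.15 (adjusted p 0.814), 0.13 ± 0.20 (adjusted p 0.623) and -0.15 ± 0.24 (adjusted p 0.654) in that order, of which Nr2f2 and Nes turned to 0.04 and 0.16 when scaled to the Sertoli markers. At D28 the value of Nes also turned, to 0.31, without replicate 1 at 14.5 dpp, and those of Pdgfra and Tcf21 turned to -0.03 and -0.13 without replicate 2. With 2 libraries at 14.5 dpp the Pdgfrb call was unsteady. Without replicate 2 at 14.5 dpp it stood at 0.93 at D16 (adjusted p 0.0528), and without replicate 1 it passed at D22 with 1.14 and at D28 with 1.08. Pdgfrb also passed without D22 replicate 2 (1.03) or replicate 3 (1.07), and without D28 replicate 2 (1.13) or replicate 3 (0.95). Under either scaling Pdgfrb passed at all 3 times.

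Scaling to the Sertoli markers moved the median of all genes against 14.5 dpp from -0.05 to 0.15 at D16, from -0.05 to 0.20 at D22 and from -0.08 to 0.20 at D28. The share of higher genes among those that passed moved from 52.8% to 74.1%, from 56.4% to 78.6% and from 55.0% to 81.0%. At D16, Nr2f2 stood at -0.43 ± 0.18 (adjusted p 0.0932), Pdgfra at 0.27 ± 0.15 (adjusted p 0.201), Tcf21 at 0.04 ± 0.20 (adjusted p 0.912) and Nes at 0.21 ± 0.24 (adjusted p 0.541). Without replicate 2 at 14.5 dpp these values of Tcf21 and Nes turned to -0.23 and -0.25, and without D16 replicate 1 that of Tcf21 to -0.12. At D22, Nr2f2 stood at -0.36 ± 0.18 (adjusted p 0.141), Pdgfra at 0.24 ± 0.15 (adjusted p 0.254), Tcf21 at 0.04 ± 0.20 (adjusted p 0.902) and Nes at -0.06 ± 0.24 (adjusted p 0.874), which turned to 0.23 under the Sertoli scaling. Here Nes turned to 0.40 without replicate 1 at 14.5 dpp and to 0.04 without D22 replicate 2. Tcf21 turned to -0.22 without replicate 2 at 14.5 dpp, to -0.02 without D22 replicate 3, and to -0.00162 without D22 replicate 2.

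D6 was compared with its matched age of 14.5 dpp, using the same 2 libraries. Here 2 of 6 members passed, each higher: Ngfr by 2.64 ± 0.19 (adjusted p 0.00135) and Pdgfrb by 1.53 ± 0.20 (adjusted p 0.00812), with 3 of 3 cultured libraries above both in vivo libraries, as for 23.8% of all genes. With no filter on low values the adjusted p of Pdgfrb was 0.0648, and Ngfr alone passed. Of 11309 genes, 5.57% passed as higher and 2.37% as lower. Pdgfra stood at 0.83 ± 0.14 (adjusted p 0.0171) with a ratio of medians under 2, and Tcf21 at 0.65 ± 0.27 (adjusted p 0.147), Nes at 0.15 ± 0.27 (adjusted p 0.723) and Nr2f2 at 0.01 ± 0.23 (adjusted p 0.981) did not reach the adjusted threshold. For Pdgfra and Tcf21, which did not pass, the D6 libraries also lay above both 14.5 dpp libraries. Without replicate 2 at 14.5 dpp Nr2f2 and Nes turned to -0.14 and -0.31, and without D6 replicate 3 Nr2f2 turned to -0.20. Scaled to the Sertoli markers, Pdgfra passed as well, at 1.14, the median of all genes moved from -0.04 to 0.24 and the share of higher genes from 70.2% to 90.0%.

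Against the age-matched testis, all 6 members were higher in culture from D16 on, and for each member the lowest cultured library lay above the highest library of the matched age, as for 42.9% of all genes at D16, 55.2% at D22 and 56.8% at D28; scaled to the Sertoli markers, most of these directions turned. At D16 against 24.5 dpp, 6 of 6 passed, beside 25.3% of 11658 genes higher and 18.3% lower, though 3 of the 6 turned negative when scaled to the Sertoli markers. The largest difference was that of Nes, 3.16 ± 0.12 (adjusted p 5.60e-06), and the smallest that of Nr2f2, 1.15 ± 0.17 (adjusted p 0.000878), with Pdgfrb at 2.76, Pdgfra at 2.30, Tcf21 at 1.88 and Ngfr at 1.49. At D22 against 30.5 dpp, 6 of 6 passed, beside 42.1% of 12118 genes higher and 22.9% lower, with 5 turning negative under that scaling. Nes was again first with 3.32 ± 0.13 (adjusted p 7.60e-07), followed by Tcf21 with 3.04 ± 0.15 (adjusted p 1.92e-06), Pdgfrb with 2.73, Pdgfra with 2.53, Ngfr with 2.18 and Nr2f2 with 1.95.

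At D28 against 36.5 dpp, 6 of 6 passed, beside 46.7% of 12210 genes higher and 23.6% lower, with 4 turning negative under the Sertoli scaling. The transcription factor Tcf21 differed by 3.71 ± 0.26 (adjusted p 5.67e-06) and Nr2f2 by 2.35 ± 0.22 (adjusted p 3.15e-05). The receptors Pdgfra and Pdgfrb differed by 2.85 ± 0.19 (adjusted p 4.24e-06) and 2.91 ± 0.22 (adjusted p 1.03e-05). Nes differed by 3.57 ± 0.13 (adjusted p 2.96e-07) and Ngfr by 2.16 ± 0.12 (adjusted p 2.23e-06). As ratios of mean FPKM, D28 stood above 36.5 dpp by 51.1 for Nes, 15.3 for Tcf21, 11.8 for Pdgfrb, 8.13 for Pdgfra, 6.17 for Ngfr and 5.71 for Nr2f2. The median log2 difference of the members was 2.09, 2.63 and 2.88 at the 3 times, beside 0.12, 0.51 and 0.64 over all genes.

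Scaled to the Sertoli markers, the median of all genes moved to -1.58, -2.40 and -2.42, and the share of higher genes among those that passed from 58.0% to 3.50%, from 64.8% to 1.85% and from 66.4% to 2.29%. Nes passed as higher at each time on this scale too, at 1.60, 0.76 and 1.14. Pdgfrb was higher at D16 (1.05) and then stood at -0.33 and -0.33. Nr2f2 turned to -0.79, -1.46 and -1.33 and Ngfr to -0.36, -0.95 and -1.11, each passing as lower at D22 and D28, where 85.3% and 83.7% of all genes did. Pdgfra stood at 0.37, -0.90 and -0.83, and Tcf21 at -0.08, -0.38 and 0.06. Under median-ratio scaling the median of all genes moved to -0.01, -0.01 and -0.03, the share of higher genes at D22 and D28 to 47.5% and 47.3%, and 6 of 6 members passed as higher at each time, beside 21.7%, 28.7% and 30.7% of all genes.

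The culture times were compared with each other to see whether the members' levels moved after the first days. Between D6 and D16 limma passed 0 of 6 members, with 4 at an unadjusted p under 0.05, beside 1.31% of 11358 genes higher and 1.69% lower. Ngfr stood at -0.69 ± 0.18 (adjusted p 0.0281), with 3 of 3 D16 libraries below D6, as for 21.6% of all genes, and Pdgfra at -0.56 ± 0.14 (adjusted p 0.0207), likewise below in 3 of 3, both with a ratio of medians under 2. Tcf21 stood at -0.62 ± 0.20 (adjusted p 0.0572), Pdgfrb, also below in 3 of 3, at -0.45 ± 0.22 (adjusted p 0.177), Nr2f2 at -0.44 ± 0.19 (adjusted p 0.145) and Nes at 0.06 ± 0.13 (adjusted p 0.799), which turned to -0.02 when scaled to the Sertoli markers and to -0.00380 without D6 replicate 1. The Sertoli scaling moved the share of higher genes from 43.7% to 30.4% in this comparison and from 74.5% to 85.0% in the next. Between D16 and D28, 0 of 6 passed, with 2 at an unadjusted p under 0.05, beside 0.616% of genes higher and 0.211% lower. Ngfr stood at -0.65 ± 0.18 (adjusted p 0.0913), and Nes at -0.36 ± 0.13 (adjusted p 0.169), both with 3 of 3 D28 libraries below D16, as for 13.6% of all genes. For the others, groups overlapped, with Pdgfra at -0.22 ± 0.14 (adjusted p 0.356), Pdgfrb at -0.15 ± 0.22 (adjusted p 0.708), Nr2f2 at 0.14 ± 0.19 (adjusted p 0.684) and Tcf21 at 0.10 ± 0.20 (adjusted p 0.800). Without D28 replicate 1 Nr2f2 turned to -0.03, and without D28 replicate 2 Pdgfrb turned to 0.05. The mean of Ngfr at D6 was 2.64 times that at D28, a difference that was not tested.

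Markers of other interstitial cells were measured beside the members. For the counts in these lists, the shares over all genes at D28 were as follows. Against 14.5 dpp, 8.40% were higher and 6.88% lower, and against 36.5 dpp 46.7% and 23.6%. Scaled to the Sertoli markers, these were 13.4% and 3.13%, then 1.96% and 83.7%. The summed FPKM of 9 adult Leydig markers, among which steroidogenic enzymes also serve fetal Leydig cells, was 245, 345 and 268 at 8.5 dpp, 153 and 318 at 14.5 dpp, 609.6, 367 and 72.8 at 24.5 dpp, 579.7, 347 and 586 at 30.5 dpp, 388, 251 and 234 at 36.5 dpp and 149, 155 and 241 at 53.5 dpp, and 35.3, 29.5 and 36.6 at D6, 34.7, 32.4 and 31.5 at D16, then 55.2, 39.4 and 39.2 at D22 and 68.8, 40.1 and 43.9 at D28. Every cultured library was thus below every in vivo library, while the 3 libraries at 24.5 dpp differed widely from each other. The hormone gene Insl3 had the highest mean over all 29 libraries, though not in culture, and averaged 113 ± 29.5 FPKM at 36.5 dpp and 1.78 ± 0.547 at D28 (SD, n = 3). The androgen synthesis enzyme gene Cyp17a1 averaged 84.3 ± 32.7 FPKM at 36.5 dpp and 0.472 ± 0.150 at D28. Against 14.5 dpp at D28, 7 of 9 fell, among them Cyp17a1 at -5.65 ± 0.36 (adjusted p 1.26e-05) and Insl3 at -3.63 ± 0.26 (adjusted p 2.07e-05), and 1 rose, Hsd11b1, a glucocorticoid-converting enzyme of adult Leydig cells, by 3.01 ± 0.32 (adjusted p 0.000124). Against 36.5 dpp, 5 of 9 were lower and 1 higher, beside 23.6% and 46.7% of all genes. Scaled to the Sertoli markers, 8 were lower and 0 higher, beside 83.7% and 1.96% of all genes. These directions did not turn for Cyp17a1, Insl3 and Hsd11b1 at D28 against 14.5 dpp under either scaling, and the part of these cells in the members' values was not tested.

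For 8 stromal fibroblast markers, summed FPKM was 1008, 1002 and 971 at 8.5 dpp, 473 and 540.3 at 14.5 dpp, 168, 96.7 and 83.7 at 24.5 dpp, 70.1, 66.0 and 125 at 30.5 dpp, 67.5, 63.5 and 47.2 at 36.5 dpp and 29.5, 30.4 and 43.8 at 53.5 dpp, and 605, 639 and 665 at D6, 793, 601 and 551 at D16, then 764, 603 and 521 at D22 and 660.1, 529 and 627 at D28. The collagen gene Col3a1 had the highest mean over all 29 libraries, but at D28 the proteoglycan gene Dcn stood above it, at 215 beside 161 FPKM, and Col1a2 was listed at 0 in each of the 29 libraries. This list was high at 8.5 dpp, low from 24.5 dpp on, and intermediate in culture, where its sum averaged 636 at D6 and 606 at D28. Over the same days the mean of Pdgfra went from 77.0 to 44.4 FPKM and that of Tcf21 from 98.2 to 66.8. Within the list, the median of Col3a1 went from 267 FPKM at D6 to 167 at D28, and that of Dcn from 167 to 221. Medians of Lum and Mfap5 also rose, and those of Col1a1, Dpt and Fbln1 fell. Differences between D6 and D28, and likeness between the list and the members, were not tested. At D28, 3 of 7 tested markers were higher and 2 lower than at 14.5 dpp, beside 8.40% and 6.88% of all genes. Against 36.5 dpp 6 of 7 were higher, beside 46.7% of all genes. In that comparison 1 was higher and 3 lower when scaled to the Sertoli markers, beside 1.96% and 83.7%. The part of fibroblasts in the members' values was not tested.

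For 6 peritubular myoid markers, of which the smooth muscle actin gene Acta2 was highest over all libraries but not at D16 or in vivo from 24.5 dpp on, summed FPKM was 735, 689.9 and 738 at 8.5 dpp, 521 and 316 at 14.5 dpp, 114, 62.3 and 99.5 at 24.5 dpp, 60.0, 61.2 and 77.9 at 30.5 dpp, 97.5, 65.6 and 33.6 at 36.5 dpp and 33.9, 40.3 and 44.0 at 53.5 dpp, and 198, 226 and 384 at D6, 132, 149 and 82.8 at D16, then 132, 149 and 138 at D22 and 106, 119 and 138 at D28. Of these, 5 of 6 fell at D28 against 14.5 dpp, and 5 did under either scaling, while against 36.5 dpp 1 of 6 was higher, with 5 lower instead when scaled to the Sertoli markers. Pericyte markers, 6 genes with Mcam highest in each group, summed to 51.9, 53.2 and 55.8 FPKM at 8.5 dpp, 34.7 and 24.1 at 14.5 dpp, 8.33, 6.02 and 9.56 at 24.5 dpp, 6.34, 7.86 and 8.95 at 30.5 dpp, 5.66, 5.62 and 2.35 at 36.5 dpp and 2.98, 3.56 and 3.16 at 53.5 dpp, and 46.3, 45.1 and 61.8 at D6, 55.7, 44.3 and 45.6 at D16, then 66.7, 47.3 and 43.2 at D22 and 66.6, 35.6 and 37.1 at D28. Here 2 of 6 rose at D28 against 14.5 dpp and 5 of 5 against 36.5 dpp, where 2 turned lower when scaled to the Sertoli markers. Their part in the members' values, Pdgfrb included, was not tested.

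Endothelial markers, 6 genes with Cdh5 of the adherens junctions highest over all libraries, summed to 48.2, 46.1 and 48.6 FPKM at 8.5 dpp, 33.9 and 27.2 at 14.5 dpp, 11.9, 6.93 and 7.24 at 24.5 dpp, 6.59, 5.57 and 10.3 at 30.5 dpp, 6.09, 5.82 and 2.62 at 36.5 dpp and 2.95, 1.87 and 3.29 at 53.5 dpp, and 69.3, 71.7 and 79.9 at D6, 91.6, 74.0 and 75.1 at D16, then 96.6, 62.3 and 57.7 at D22 and 83.3, 52.4 and 64.4 at D28. All cultured libraries stood above all in vivo libraries. At D28, 3 of 6 rose against 14.5 dpp and 4 of 6 were higher than at 36.5 dpp, where 0 were higher and 2 lower when scaled to the Sertoli markers. The part of endothelial cells in the members' values was not tested.

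**Figure D4:**
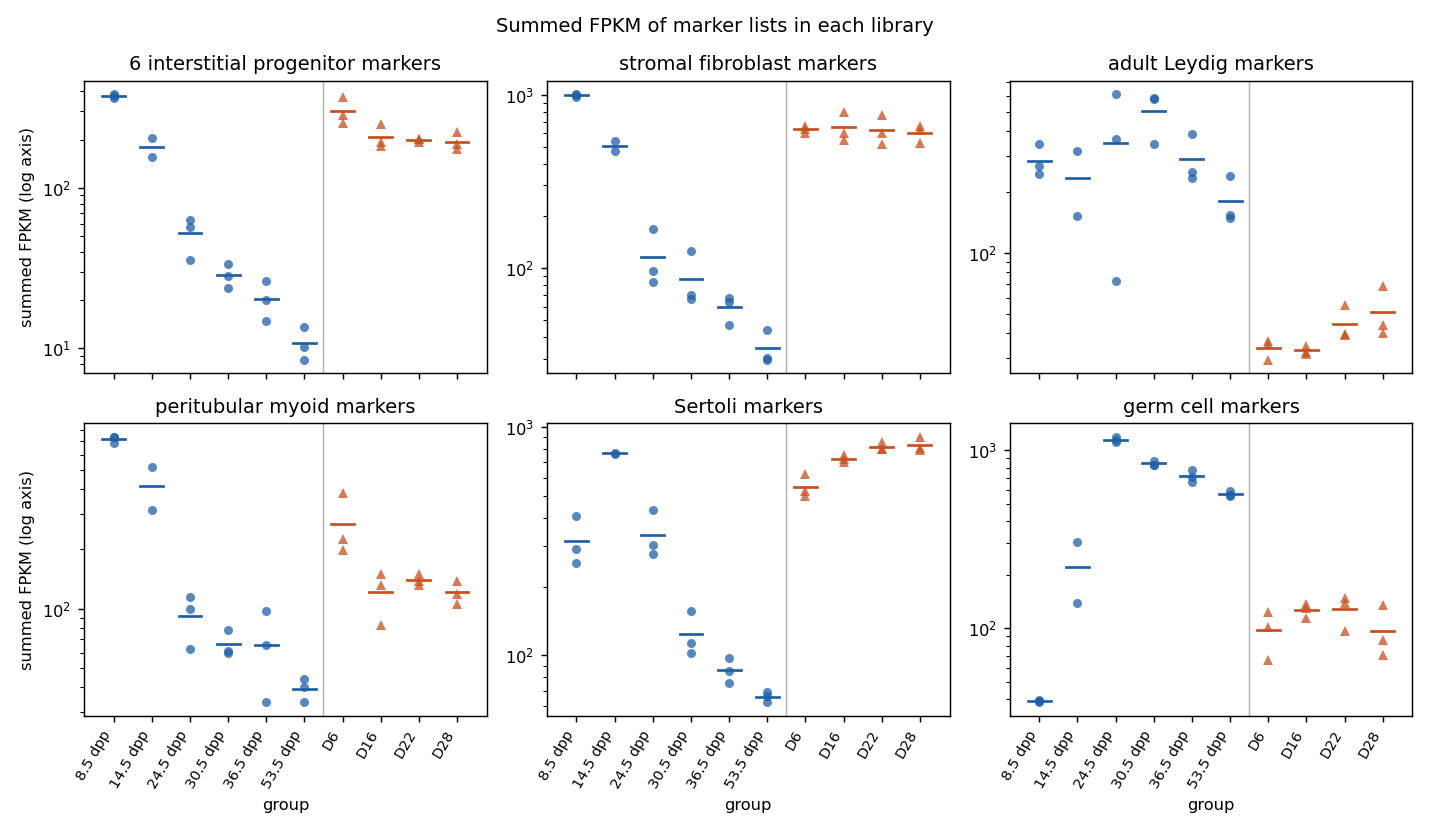
Summed FPKM (log axis) of 6 marker lists in each library, with circles for in vivo and triangles for cultured libraries and bars at group means. The adult Leydig sum lies between 29.5 and 68.8 in cultured libraries and between 72.8 and 609.6 in vivo, and the sum of the 6 interstitial progenitor markers is higher in each cultured library than in each in vivo library from 24.5 dpp on.

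The other genes of the pathways were counted from fixed lists. The shares of all genes given above for D28 stand beside these counts too. From 14.5 to 24.5 dpp, 14.2% of all genes were higher and 21.4% lower, or 69.6% and 0.223% when scaled to the Sertoli markers. From 24.5 to 53.5 dpp, 15.9% were higher and 50.9% lower, or 53.5% and 1.23% under that scaling. Against 8.5 dpp, 9.90% were higher and 6.23% lower at D6, and 13.6% and 10.5% at D28. For the PDGF ligands, 1 of 4 was higher at D28 than at 14.5 dpp, Pdgfc, by 1.26 ± 0.19 (adjusted p 0.000944), and 4 of 4 were higher than at 36.5 dpp, with 3 higher and 1 lower when scaled to the Sertoli markers. Pdgfa, the ligand of the alpha receptor that Sertoli cells make, had the highest mean over all 29 libraries, with 24.8 ± 3.45 FPKM at 8.5 dpp, 6.15 ± 3.45 at 14.5 dpp, 0.237 ± 0.119 at 36.5 dpp and 9.81 ± 0.827 at D28 (SD, n = 3, or 2 at 14.5 dpp). At 36.5 dpp Pdgfb stood above it, at 1.07 ± 0.114 FPKM. Pdgfc averaged 2.01 ± 0.489 FPKM at 14.5 dpp and 6.22 ± 1.11 at D28 and was listed at 0 in 3 of 3 libraries at 36.5 dpp. From 14.5 to 24.5 dpp, 4 of 4 ligands fell, beside 1 of 4 when scaled to the Sertoli markers, and from 24.5 to 53.5 dpp 2 fell, where that scaling gave 2 higher. Against 8.5 dpp, 2 of 4 were lower and 1 higher at D6. The median log2 difference of the ligands at D28 was 0.60 against 14.5 dpp and 2.27 against 36.5 dpp, beside -0.08 and 0.64 over all genes.

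For Ngfr, the list of neurotrophins and their receptors held 8 genes, of which 6 were tested in these 2 comparisons. At D28, 1 was higher and 1 lower than at 14.5 dpp: Ntrk2, the receptor of BDNF and neurotrophin 4, by 0.79 ± 0.17 (adjusted p 0.00481), and Ntf3, which encodes neurotrophin 3, at -2.15 ± 0.25 (adjusted p 0.000204). Ntf3 averaged 15.8 ± 1.22 FPKM at 8.5 dpp, 8.49 ± 2.77 at 14.5 dpp (n = 2) and 1.09 ± 0.206 at D28, and was listed at 0 in all 9 libraries from 30.5 dpp on. Ntf4, chosen after its values were seen, averaged 19.9 ± 2.04 FPKM at 8.5 dpp, 1.58 ± 0.371 at 36.5 dpp and 4.85 ± 0.645 at D28. Sort1, a co-receptor of p75, had the highest mean of the list over all libraries, with 30.2 ± 1.55 FPKM at 14.5 dpp and 32.3 ± 3.84 at D28, and stood at 0.09 ± 0.13 (adjusted p 0.636) between them. Against 36.5 dpp, 4 of 6 were higher at D28, and with scaling to the Sertoli markers 1 was higher and 3 lower. Against 8.5 dpp, 4 of 6 were higher and 2 lower.

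Notch signalling keeps progenitor Leydig cells from differentiating, and 8 of 10 listed genes of the pathway were measured, Jag2 and Maml2 not being analysed here. At D28, 2 of 8 were higher than at 14.5 dpp: Dll4, a ligand of endothelial cells, by 2.53 ± 0.28 (adjusted p 0.000171), and Hey1, a target, by 1.04 ± 0.25 (adjusted p 0.00872). Dll4 averaged 1.28 ± 0.405 FPKM at 8.5 dpp, 0.932 ± 0.0774 at 14.5 dpp (n = 2), 12.6 ± 1.74 at D6 and 10.5 ± 3.48 at D28. Hes1, a target and the gene of the list with the highest mean over all libraries, stood at 0.68 ± 0.16 (adjusted p 0.00680), under the required ratio of medians. Against 36.5 dpp 8 of 8 were higher at D28, beside 46.7% of all genes. Scaled to the Sertoli markers 1 was higher and 5 lower, beside 1.96% and 83.7% of all genes. In vivo, 6 of 8 fell and 1 rose from 14.5 to 24.5 dpp, beside 21.4% and 14.2% of all genes. The Sertoli scaling gave 4 higher, beside 69.6% of all genes.

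**Figure D5:**
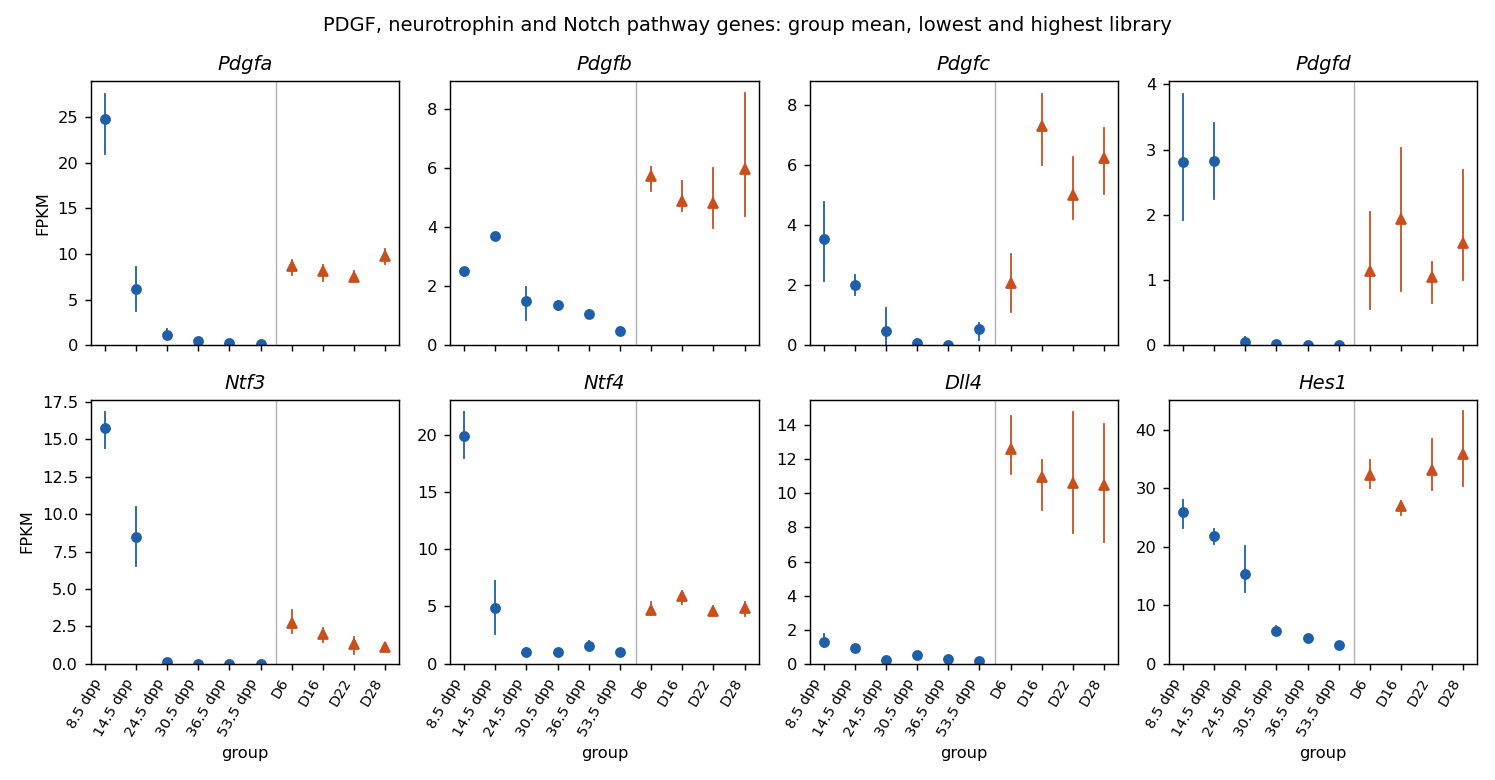
Group mean FPKM of PDGF ligands, neurotrophins and Notch pathway genes over the 6 ages in vivo and the 4 culture times, with bars from the lowest to the highest library. Dll4 lies near 10.5 FPKM at D28 against 0.932 at 14.5 dpp, and Ntf3 is at 0 in vivo from 30.5 dpp on.

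Among other genes used for interstitial progenitors, 9 of 10 were measured and 8 tested in the comparisons at D28; Itgav is not analysed here. Nr2f1, which encodes the paralogue COUP-TFI, was the single gene of the 8 to pass against 14.5 dpp, higher by 1.71 ± 0.17 (adjusted p 0.000102). It averaged 0.546 ± 0.0962 FPKM at 14.5 dpp (n = 2) and 4.06 ± 0.202 at D28, and was listed at 0 in 3 of 3 libraries at 30.5 dpp and at 53.5 dpp. Cd34, a sialomucin of progenitor and endothelial cells, had the highest mean of the list over all libraries, with 89.4 ± 9.90 FPKM at 8.5 dpp, 3.33 ± 1.06 at 36.5 dpp and 58.5 ± 8.92 at D28. Against 36.5 dpp 8 of 8 were higher at D28, Cd34 by 3.80 ± 0.21 (adjusted p 1.89e-06); scaled to the Sertoli markers 1 of 8 was higher and 2 were lower. From 14.5 to 24.5 dpp, 7 of 8 fell, and with that scaling 1 was higher.

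For the transcription factors, 7 partner genes, E-proteins that pair with Tcf21 and nuclear receptors and GATA factors of the gonad, were measured. At D28, limma passed 0 of 7 against 14.5 dpp, with 0 at an unadjusted p under 0.05 and a median log2 difference of 0.13, and 6 of 7 were higher than at 36.5 dpp, with 2 lower instead when scaled to the Sertoli markers. Gata4, a factor of Sertoli and Leydig cells and the highest of the 7 in each group, averaged 261 ± 2.43 FPKM at 8.5 dpp, 169 ± 43.7 at 14.5 dpp (n = 2), 13.8 ± 1.62 at 36.5 dpp and 184 ± 11.7 at D28. From 14.5 to 24.5 dpp, 6 of 7 fell, beside 21.4% of all genes, and with that scaling 1 was higher, beside 69.6%.

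The genes most like each member were ranked by Pearson r of log2(FPKM + 1) over the 29 libraries, among 11115 genes with a mean of at least 1 FPKM. The libraries share age and culture groups, so these values describe courses and not independent samples. For Nr2f2 they were Ptms (r 0.995), Ltbp4 (0.994) and Cavin3 (0.993), with 0.917, 0.884 and 0.932 over the 12 cultured libraries. For Tcf21 they were Tspan9 (r 0.995), Mageh1 (0.994) and Plpp3 (0.993), with 0.823, 0.860 and 0.695 in culture. Pdgfra was nearest to Islr, Tril and Serpinh1 (r 0.993 each), with 0.894, 0.814 and 0.807 in culture. Pdgfrb was nearest to Cdh5 (r 0.993) of the endothelial list, Selenom (0.992) and Notch3 (0.991) of the pericyte and Notch lists, with 0.871, 0.948 and 0.963 in culture. Nes was nearest to Cdh11 (r 0.995), Heph (0.994) and Arpin (0.992), and in culture these gave 0.756, 0.534 and 0.450. Ngfr had lower values, with Wnt10a (r 0.964), Icam1 (0.956) and Pim3 (0.952), and 0.731, 0.756 and 0.743 in culture.

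Over the 12 cultured libraries alone other genes were nearest, listed here after their values were seen. They were Emilin1 for Nr2f2 (r 0.967, and 0.976 over all 29), Fblim1 for Tcf21 (0.965 and 0.972), Prkcb for Pdgfra (0.983 and 0.923), Cavin2 for Pdgfrb (0.965 and 0.763) and Gpc3 for Ngfr (0.987 and 0.799). For Nes the first was Ptpdc1 (0.899), whose r over all 29 libraries had the opposite sign, -0.946.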

How the data were processed

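Poly(A) RNA of whole testes and cultured testis pieces was sequenced as stranded single reads. The authors aligned reads to rn6 with STAR 2.5.2a, and the deposited FPKM were quantified with StringTie against the RefSeq annotation. Entrez identifiers were matched to symbols through the RefSeq table of build GRCr8, which held 17172 of the 17322 genes; it was used for names and promoters. FPKM, with no further scaling, were taken as log2(FPKM + 1) and fitted with limma 3.58.1 in R 4.3.3, for 14 contrasts in 5 families, on genes whose median reached 0.5 FPKM in some group of the fit. The library labelled as an outlier, listed at 0 throughout, was excluded. Benjamini-Hochberg adjustment covered all genes tested. Numbers of reads are not given, so no precision follows from depth. Tables and figures used Python 3.11.15, numpy 2.4.6, pandas 2.3.3, scipy 1.17.1 and matplotlib 3.10.9. The pipeline was tested on simulated data.

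The members and lists were chosen with earlier results of these data known. Genes named besides the members are, per list, the most abundant by mean over all libraries and up to 3 with the largest difference among those that passed at D28 against 14.5 dpp, and the 3 nearest to each member; Cyp17a1 at other ages, Dazl, Dcn and Pdgfb as further levels, the leading genes in culture alone and genes marked in the text are additions made after their values were seen. A further marker list is not reported here. Alternatives were a pseudocount of 0.1, no filter or a filter at 2 FPKM, 2 scalings, a trend in the prior variance, all 10 groups in 1 fit, a replicate block, a ratio of 1.5 and leaving out each library.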

Additional observations from a re-analysis of the deposited data

Results flagged for a closer look

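For Nr2f2 and Tcf21 the change from D16 to D28 in culture differed from the change from 24.5 to 36.5 dpp in vivo, by a limma test of that difference chosen after seeing the data. Nr2f2 changed by 0.14 in culture and by -1.06 in vivo on the log2 scale, a difference of 1.20 ± 0.30 (SE, adjusted p 0.00428). Tcf21 changed by 0.10 in culture and by -1.73 in vivo, a difference of 1.83 ± 0.44 (adjusted p 0.00317). Of 12420 genes tested, 8475 (68.2%) had an adjusted p of at most 0.05, so a difference of this kind was the rule and not particular to these genes.

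Without scaling the other 4 members did not reach that threshold, with 0.55 for Pdgfra (adjusted p 0.168), 0.15 for Pdgfrb (0.683), 0.40 for Nes (0.0681) and 0.67 for Ngfr (0.113). In vivo, Nes averaged 1.17 FPKM at 24.5 dpp and 0.279 at 36.5 dpp, so the 1 added to FPKM shrinks its change there. A smaller pseudocount was not tried for this test, so the value of Nes cannot be ranked against the others. Under median-ratio scaling the difference was 0.49 for Nr2f2 (adjusted p 0.170) and 1.16 for Tcf21 (0.0346), with 7088 of 12420 genes at the threshold. Scaled to the Sertoli markers the difference was -0.58 for Nr2f2 (0.184) and 0.14 for Tcf21 (0.794). On the Sertoli scale Pdgfra at -1.20 (adjusted p 0.0360) and Pdgfrb at -1.34 (0.00680) did reach the threshold, as did 7486 of 12420 genes. The sign of both members was opposite to that without scaling, while Nes was at -0.21 (0.403) and Ngfr at -0.82 (0.0535). Between these 2 scalings, Tcf21 kept both sign and threshold under the median-ratio one, and Nr2f2 under neither.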

How the results depend on the processing

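Of 966 values from fits that left out 1 library, 931 kept their direction and their side of the threshold, 11 came to pass, 7 ceased to pass and 17 reversed; of 756 under the other settings, these numbers were 692, 28, 9 and 27. Leaving out each library in turn, the members that passed numbered 1 to 2 for D16, for D22 and for D28 against 14.5 dpp, 2 to 2 for D6 against 14.5 dpp, 6 to 6 against each later matched age, 1 to 1 for D6 and 3 to 4 for D28 against 8.5 dpp, 2 to 4 from 8.5 to 14.5 dpp, 5 to 6 from 14.5 to 24.5 dpp, 6 to 6 from 24.5 to 53.5 dpp, and 0 to 0 within culture. A group left with 1 library was assumed to vary like the others. Log2 differences that reversed, each of a member that had not passed, ranged as follows. Against 14.5 dpp: at D16, Tcf21 -0.23 to 0.30 and Nes -0.25 to 0.67; at D22, Tcf21 -0.22 to 0.30 and Nes -0.52 to 0.40; at D28, Tcf21 -0.13 to 0.39, Nes -0.61 to 0.31 and Pdgfra -0.0260 to 0.13; at D6, Nr2f2 -0.20 to 0.16 and Nes -0.31 to 0.61. Within culture, Nes ran from -0.00380 to 0.12 between D6 and D16, and Nr2f2 from -0.0267 to 0.27 and Pdgfrb from -0.36 to 0.0478 between D16 and D28.

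Scaled to the Sertoli markers, members passing numbered 2 for D22 and for D28 and 3 for D6 against 14.5 dpp, 2 for D16, 3 for D22 and 3 for D28 against the matched age, 4 for D6 and 5 for D28 against 8.5 dpp, and 6, 2 and 1 for the in vivo steps in turn. Reversed values on that scale were, against 14.5 dpp, Nes 0.23 at D22 and Nr2f2 0.0388 and Nes 0.16 at D28. Against the matched age they were, at D16, Nr2f2 -0.79, Tcf21 -0.0763 and Ngfr -0.36; at D22, Nr2f2 -1.46, Pdgfra -0.90, Pdgfrb -0.33, Tcf21 -0.38 and Ngfr -0.95; and at D28, Nr2f2 -1.33, Pdgfra -0.83, Pdgfrb -0.33 and Ngfr -1.11. Against 8.5 dpp they were Pdgfrb -0.48 at D6 and Ngfr -0.22 at D28. In vivo they were Nr2f2 0.56, Pdgfra 0.12, Pdgfrb 0.11 and Tcf21 0.32 from 14.5 to 24.5 dpp, and Nr2f2 0.46, Pdgfra 0.52, Pdgfrb 0.85 and Ngfr 0.30 from 24.5 to 53.5 dpp. Between D6 and D16 Nes was -0.0214. For the change from D16 to D28 minus that from 24.5 to 36.5 dpp, alternatives were chosen after seeing the data. Reversed values under the Sertoli scaling were Nr2f2 -0.58, Pdgfra -1.20, Pdgfrb -1.34, Nes -0.21 and Ngfr -0.82. Of these, Pdgfra and Pdgfrb passed the threshold on p. Median-ratio scaling gave Pdgfra -0.14 and Pdgfrb -0.37. The cause was not tested.

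Under median-ratio scaling 2 members passed for D22 and for D28 against 14.5 dpp, 5 from 8.5 to 14.5 dpp, 6 from 14.5 to 24.5 dpp and 3 from 24.5 to 53.5 dpp. With a ratio of 1.5, which is easier to meet, 2 passed for D22 and for D28 and 3, with Pdgfra, for D6 against 14.5 dpp, 4 for D6 against 8.5 dpp, 6 from 8.5 to 14.5 dpp and 2 from D6 to D16. Those against 14.5 dpp were higher, beside 12.9%, 13.6% and 8.52% of all genes. For D6 against 8.5 dpp 1 was higher and 3 lower, beside 17.8% and 12.4%. The last 2 counts were of lower members, beside 12.1% and 4.54% of all genes lower. With no filter, 1 passed for D6 against 14.5 dpp, Pdgfrb being lost. With the replicate number as a block, Nr2f2 at D6 against 14.5 dpp reversed to -0.20, the difference of changes stayed at 1.20 for Nr2f2 (adjusted p 0.000523) and 1.83 for Tcf21 (0.00168), and the counts stayed at 2, 1, 1 and 2 against 14.5 dpp, 6, 6 and 6 against the later matched ages, 1 and 4 against 8.5 dpp, 3, 5 and 6 in vivo, and 0 and 0 within culture. Deviations of libraries from their group means were correlated between groups. For same-numbered libraries r lay between -0.13 and 0.22, and for differently numbered ones between -0.33 and 0.31. The numbers were therefore not treated as pairs. The causes were not tested. Group sizes of 2 and 3 and unknown read depth limit what can be told for the lowest levels, such as Nes after 30.5 dpp.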

Other observations

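Markers outside the comparisons above also moved with age or culture. The summed FPKM of 6 macrophage markers was 17.1, 14.8 and 24.0 at 8.5 dpp, 16.7 and 16.2 at 14.5 dpp, 19.3, 17.7 and 15.6 at 24.5 dpp, 31.4, 87.7 and 62.3 at 30.5 dpp, 111, 128 and 121 at 36.5 dpp and 260.0, 228 and 212 at 53.5 dpp, and 24.0, 22.8 and 26.8 at D6, 17.1, 17.9 and 21.7 at D16, then 31.0, 24.3 and 24.0 at D22 and 34.9, 24.8 and 19.5 at D28. Aif1 made up most of the later in vivo sums, with 213 FPKM on average at 53.5 dpp, and Cd163, a scavenger receptor, was listed at 0 in all 12 cultured libraries. The median log2(FPKM + 1) of the list averaged 1.36 ± 0.60 at 8.5 dpp and 1.52 ± 0.14 at 53.5 dpp (SD, n = 3). The typical marker of the list thus did not rise as the sum did. At D28, 2 of 5 tested were higher than at 14.5 dpp, Cd68 by 1.27 ± 0.25 (adjusted p 0.00355) and Adgre1 by 0.66 ± 0.11 (adjusted p 0.00161). Against 36.5 dpp, 2 were higher and 2 lower, beside 46.7% and 23.6% of all genes. Scaled to the Sertoli markers, 0 were higher and 4 lower, beside 1.96% and 83.7%.

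Among the peritubular myoid markers, contractile genes stood lower at D28 than at 14.5 dpp. Cnn1 differed by -2.45 ± 0.27 (adjusted p 0.000145), Acta2 by -2.03 ± 0.52 (adjusted p 0.0124) and Myh11 by -1.66 ± 0.19 (adjusted p 0.000209). Of the vascular genes, Kdr differed by 1.54 ± 0.13 (adjusted p 4.83e-05), Tie1 by 1.40 ± 0.30 (adjusted p 0.00549) and Pecam1 by 1.11 ± 0.26 (adjusted p 0.00783), and of the pericyte genes the channel subunits Abcc9 by 1.54 ± 0.16 (adjusted p 0.000128) and Kcnj8 by 1.26 ± 0.34 (adjusted p 0.0143). Of the matrix genes, Fbln1 differed by 1.51 ± 0.30 (adjusted p 0.00371), Lum by 1.37 ± 0.27 (adjusted p 0.00315) and Mfap5 by -1.15 ± 0.19 (adjusted p 0.00147). Of the germ cell genes, Dazl differed by -1.30 ± 0.39 (adjusted p 0.0248) and Ddx4 by -1.08 ± 0.20 (adjusted p 0.00245). The signs did not turn under either scaling, though Mfap5, Dazl and Ddx4 no longer passed when scaled to the Sertoli markers, and these values share the 2 libraries at 14.5 dpp. Of the 6 Sertoli markers, 0 passed as higher and 0 as lower in limma's test against 14.5 dpp, with 3 at an unadjusted p under 0.05.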
